A study of Mus musculus with 6 samples.

Results

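The common gamma chain cytokines and receptors were examined as 10 genes of the deposited expression table, which lists 21358 entries in all. The members were listed by name and matched to the table by gene symbol. They are the receptor chain genes *Il2ra*, *Il2rb*, *Il2rg*, *Il15ra*, *Il21r*, *Il4ra* and *Il9r* and the cytokine genes *Il15*, *Il7* and *Il21*, and all 10 were found. The table holds RNA-seq of whole B16F10 tumors, a gp100-positive murine melanoma grown under the skin of C57/BL6 mice. The tumors were taken at day 12, 3 per group. Days count from the cell transfer and the first cytokine dose, and the next cycle of either cytokine began before day 12. All mice were lymphodepleted by total body irradiation and received splenocytes of pmel-1 mice that had been cultured with gp100 peptide and murine IL-2, whose CD8 T cells carry a transgenic receptor for gp100. The groups then differed in the cytokine given, with its schedule, dose and route. In ACT + IL-2 (n = 3), IL-2 was injected into the peritoneum on consecutive days of each cycle. In ACT + NKTR-214 (n = 3), NKTR-214 was injected into a vein once per cycle. ACT stands for adoptive cell transfer. Each tumor gave 1 library. Tumors of mice that received ACT without a cytokine were not analysed here, so every comparison is of 1 cytokine treatment with the other.

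The common gamma chain, encoded by *Il2rg*, is a signaling chain shared by the receptors for IL-2, IL-4, IL-7, IL-9, IL-15 and IL-21. IL-2 and IL-15 both signal through a pair of the beta chain (*Il2rb*) and the gamma chain, to which IL-2 adds its private alpha chain (*Il2ra*, CD25) and IL-15 its own alpha chain (*Il15ra*), which also presents IL-15 to neighboring cells. The alpha chain gives the IL-2 receptor its high affinity and is abundant on regulatory T cells and on recently activated T cells. NKTR-214 is IL-2 carrying releasable polyethylene glycol chains, designed to signal mainly through the beta and gamma chains, so the balance of these chains in the tumors is the question that the comparison addresses.

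The members lie on 7 mouse chromosomes (GENCODE vM21 on GRCm38), with neighbors among them on chromosomes 2 and 7. *Il2ra* (chr2:11642807-11693193) and *Il15ra* (chr2:11705290-11734317) are separated by 12096 bases and are read in the same direction. *Il4ra* (chr7:125552120-125579474) and *Il21r* (chr7:125603429-125633570) are separated by 23954 bases, also in the same direction. *Il2rb* lies at chr15:78479256-78495271, *Il2rg* at chrX:101264378-101268255, *Il9r* at chr11:32187541-32200279, *Il15* at chr8:82331632-82403222, *Il7* at chr3:7569994-7613760 and *Il21* at chr3:37222759-37232636. Part of the *Il2rg* exons (30.5% of their bases) also belongs to Gm20489, a gene model on the same strand that is not an entry of the table. Antisense gene models that are likewise no entries cover 9.51% of the *Il4ra*, 8.92% of the *Il21* and 1.85% of the *Il7* exon bases. No source used here says whether reads were counted by strand.

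Promoter sequences from RefSeq (GRCm38.p6) were matched for 7 of the 10 members, with 8 transcription starts. The 250 bases before a start are given here for *Il2ra*, for its neighbor *Il15ra* and for *Il2rg*, whose products are alternative alpha chains and the gamma chain with which both assemble. *Il15ra* has another start, whose window (chr2:11705043-11705292) lies at the beginning of the gene and held no match. The *Il15ra* window printed lies within the gene and holds a match. Capitals mark matches to the motifs searched.
Il2ra, chr2:11642542-11642791, plus strand: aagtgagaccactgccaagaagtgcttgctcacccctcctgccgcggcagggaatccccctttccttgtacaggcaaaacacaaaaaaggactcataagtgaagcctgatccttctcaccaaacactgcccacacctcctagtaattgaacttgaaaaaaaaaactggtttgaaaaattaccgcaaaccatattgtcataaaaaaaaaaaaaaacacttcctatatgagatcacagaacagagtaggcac
Il15ra, chr2:11705462-11705711, plus strand: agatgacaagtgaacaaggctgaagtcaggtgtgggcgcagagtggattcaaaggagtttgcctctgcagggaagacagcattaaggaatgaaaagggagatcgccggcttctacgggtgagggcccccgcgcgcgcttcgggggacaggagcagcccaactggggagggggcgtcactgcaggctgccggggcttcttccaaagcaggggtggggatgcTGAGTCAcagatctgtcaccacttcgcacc
Il2rg, chrX:101268256-101268505, minus strand: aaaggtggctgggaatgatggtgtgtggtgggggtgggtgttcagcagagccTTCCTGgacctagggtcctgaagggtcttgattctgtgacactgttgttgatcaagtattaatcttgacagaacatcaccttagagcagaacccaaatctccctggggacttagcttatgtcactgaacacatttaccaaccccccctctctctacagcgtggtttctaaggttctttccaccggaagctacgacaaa
Motifs were searched on both strands, and no matches overlapped each other. The STAT motif TTCNNNGAA was found in 0 of the 8 member windows and in 7.02% of all 32851 promoter windows, and its wider form, with 1 base more between the ends, was found in 0 and in 5.85%. The core of the interferon-stimulated response element was found in 0 member windows and in 2.98% of all windows. The AP-1 motif TGANTCA, present in 6.75% of all windows, was found in 1 member window, 30 bases before a start of *Il15ra*. The ETS motif CAGGAA, present in 25.7% of all windows, was found 198 bases before the start of *Il2rg* and 200 bases before that of *Il21*. These are matches of letters within this window only.

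The values are FPKM, fragments per kilobase of exon per 1000000 mapped fragments, which takes the length of a gene into account. From the steps that single reads leave in the lowest values, the libraries were estimated to hold between 20.9 and 24.7 M mapped reads (1 M is 1000000). The scale does not place every gene alike. Among the housekeeping genes, *Gapdh* and *Ppia*, named here after their values were seen, averaged 5.56 and 2.38 FPKM in ACT + IL-2, below *Tbp* at 8.49 FPKM and far below *Actb* at 818 FPKM. The order of levels between genes, and whether a ratio of genes lies above or below 1, therefore hold on this scale only, whereas the change of a ratio sets the same genes against each other in both groups. The melanoma origin of the tissue was visible in every library. The 6 melanocyte lineage genes *Mlana*, *Tyr*, *Tyrp1*, *Dct*, *Mitf* and *Slc45a2* summed to 4225 to 5432 FPKM in ACT + IL-2 and to 2060 to 2946 FPKM in ACT + NKTR-214. All 6 were lower there without overlap, where 42.4% of all genes tested did not overlap in either direction. By the test named below, 4 of the 6 were called lower, against 8.28% of all genes. In whole-tumor RNA, fewer cells of a type and less RNA per cell cannot be told apart, which holds for every result that follows. The groups were compared with limma on log2(FPKM + 1) over the 14172 genes with a mean of at least 0.1 FPKM, with Benjamini-Hochberg adjustment over all of them. Of the genes tested, an adjusted p under 0.05 was reached by 20.7% with the higher level in ACT + NKTR-214 and by 8.28% with the lower level there. All 3 ACT + NKTR-214 tumors lay above all 3 ACT + IL-2 tumors for 27.1% of them.

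Of the 10 members, 8 reached the level needed for the test, 7 of these were higher in ACT + NKTR-214 and 0 were lower (limma, also 0 at an unadjusted p under 0.05), against the 20.7% and 8.28% of all genes. The lower share depends on the scaling, with 3709 to 4549 lower genes under the 3 other scalings in place of 1173. The members and the lists below were chosen with earlier results of these data known, so their counts are descriptive only. The median log2 fold change of the tested members was 1.89, and that of all genes tested was 0.05. The members that rose were 6 receptor chain genes and *Il15*. Without regard to the test, all ACT + NKTR-214 tumors were above all ACT + IL-2 tumors for 9 of the 10 members, against 27.1% of the genes tested, with *Il21* as the exception. *Il7* did not pass, and *Il9r* and *Il21* were too low to be tested. The plot of FPKM by tumor shows all 10.

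**Figure D1:**
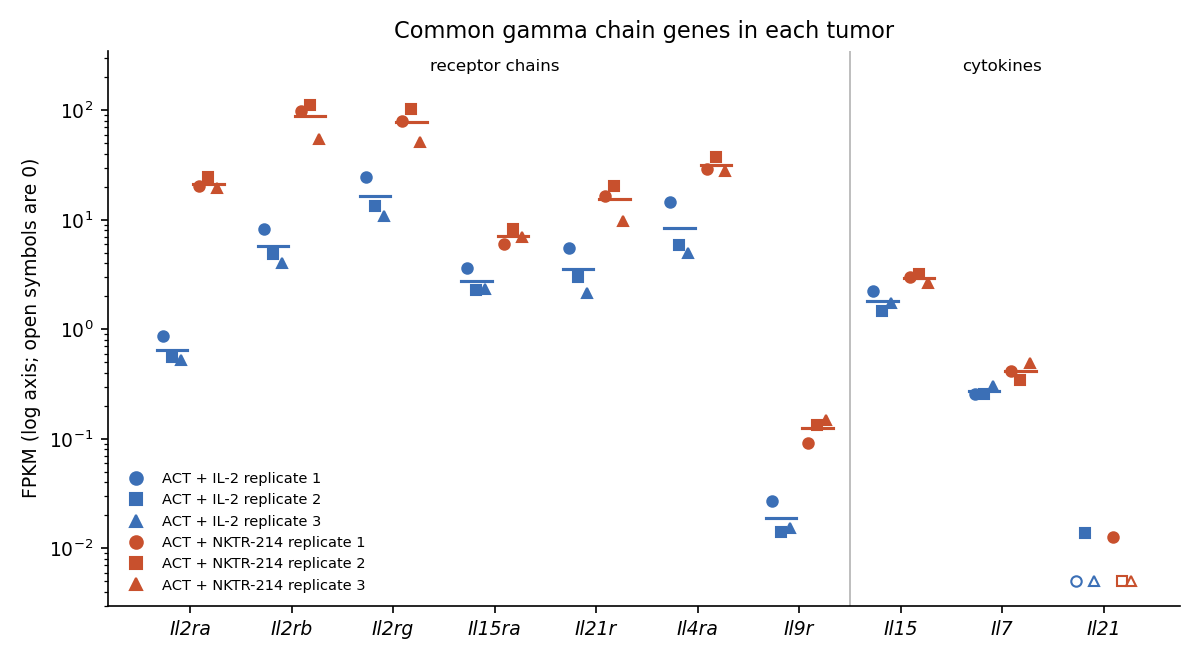
FPKM (log axis) of the 10 members in each of the 6 tumors, with blue symbols for ACT + IL-2, red symbols for ACT + NKTR-214, symbol shape for the replicate, horizontal lines for group means of 3 tumors and open symbols at the bottom for values of 0. The widest gap between the groups is that of *Il2ra*, from 0.872 FPKM in the highest ACT + IL-2 tumor to 19.4 FPKM in the lowest ACT + NKTR-214 tumor, and *Il21* is near 0 throughout.

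The 3 IL-2 receptor chain genes had the largest log2 fold changes of the 8 tested members. *Il2ra*, the alpha chain, measured 0.872, 0.563 and 0.530 FPKM in the ACT + IL-2 tumors (in the order of replicates 1, 2 and 3, kept throughout), compared with 20.3, 24.5 and 19.4 FPKM in the ACT + NKTR-214 tumors. It was low in all 3 ACT + IL-2 tumors and at a similar level in all 3 ACT + NKTR-214 tumors, and the group means of 0.655 ± 0.189 and 21.4 ± 2.74 FPKM (SD, n = 3 each) were 32.7-fold apart. On the log2 scale limma put the change at 3.76 ± 0.16 (SE), with an adjusted p of 7.88e-10. *Il2ra* was the only member to pass when the variance of each gene was estimated from its own 6 values (adjusted p of 0.0227 by limma without moderation, the highest of its alternatives).

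*Il2rb*, the beta chain shared by the IL-2 and IL-15 receptors, measured 8.26, 4.92 and 4.08 FPKM in the ACT + IL-2 tumors, compared with 99.1, 111 and 55.0 FPKM in the ACT + NKTR-214 tumors. The groups were far apart, and within ACT + NKTR-214 replicate 3 was the lowest. The means of 5.75 ± 2.22 and 88.5 ± 29.7 FPKM (SD, n = 3 each) were 15.4-fold apart, and limma put the log2 change at 3.72 ± 0.25 (SE), with an adjusted p of 5.82e-08. *Il2rg*, the gamma chain, measured 24.7, 13.4 and 10.9 FPKM in the ACT + IL-2 tumors, compared with 79.9, 103 and 51.0 FPKM in the ACT + NKTR-214 tumors. The same tumors were highest and lowest as for *Il2rb*, namely replicates 1 and 3 of ACT + IL-2 and replicates 2 and 3 of ACT + NKTR-214. The means of *Il2rg* were 16.3 ± 7.37 and 77.8 ± 25.8 FPKM (SD, n = 3 each), which were 4.76-fold apart. Its log2 change by limma was 2.21 ± 0.26 (SE), with an adjusted p of 1.28e-05.

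The IL-15 pair had smaller log2 changes than the IL-2 receptor chains. *Il15ra*, the private chain of the IL-15 receptor, measured 3.64, 2.31 and 2.32 FPKM in the ACT + IL-2 tumors, compared with 5.98, 8.31 and 7.01 FPKM in the ACT + NKTR-214 tumors, without overlap. Its log2 change by limma was 1.12 ± 0.18 (SE, adjusted p of 0.000174), and its means of 2.76 ± 0.769 and 7.10 ± 1.17 FPKM (SD, n = 3 each) were 2.58-fold apart. *Il15*, the cytokine that this chain presents, measured 2.24, 1.46 and 1.74 FPKM in the ACT + IL-2 tumors, compared with 2.99, 3.18 and 2.68 FPKM in the ACT + NKTR-214 tumors. The groups did not overlap but lay close together, where replicate 1 of the former and replicate 3 of the latter were nearest to each other. For *Il15* limma gave a log2 change of 0.50 ± 0.15 (SE), with an adjusted p of 0.0192. This call was lost in 7 of 15 alternative fits. With quantile normalization the log2 change was 0.22 (adjusted p of 0.0596 by limma). The call was also lost without a minimum level (adjusted p of 0.0531 by limma) and without moderation of the variance (0.0937). Of the fits with a tumor left out, it was lost without ACT + IL-2 replicate 2 (adjusted p of 0.0578 by limma), without ACT + IL-2 replicate 3 (0.0516), without ACT + NKTR-214 replicate 1 (0.0553) and without ACT + NKTR-214 replicate 2 (0.0659).

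The ligand-binding chains of the IL-21 and IL-4 receptors also rose. *Il21r* measured 5.53, 3.01 and 2.13 FPKM in the ACT + IL-2 tumors, compared with 16.6, 20.4 and 9.78 FPKM in the ACT + NKTR-214 tumors. Its tumors followed the order seen for *Il2rg* in both groups. Group means were 3.56 ± 1.76 and 15.6 ± 5.37 FPKM (SD, n = 3 each), and limma put the log2 change at 1.88 ± 0.26 (SE, adjusted p of 5.32e-05). *Il4ra*, which pairs with the gamma chain for IL-4 and with *Il13ra1* for IL-4 and IL-13, measured 14.6, 5.90 and 5.01 FPKM in the ACT + IL-2 tumors, compared with 29.2, 37.3 and 28.1 FPKM in the ACT + NKTR-214 tumors. ACT + IL-2 replicate 1 stood above the other two tumors of its group and below every ACT + NKTR-214 tumor. Group means of *Il4ra* were 8.51 ± 5.31 and 31.5 ± 5.001 FPKM (SD, n = 3 each), and its log2 change was 1.90 ± 0.26 (SE, adjusted p of 5.57e-05 by limma).

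*Il9r*, the private chain of the IL-9 receptor, rested on few reads. The smallest whole read numbers that fit its values were 2, 1 and 1 in the ACT + IL-2 tumors (0.0272, 0.0142 and 0.0155 FPKM) and 7, 10 and 11 in the ACT + NKTR-214 tumors (0.0919, 0.133 and 0.1501 FPKM). Depth and exon length gave estimates of 1.60 to 3.21 reads and of 11.2 to 17.6 reads, so the whole numbers are lower limits, as are the read numbers given for other genes. Every ACT + NKTR-214 tumor was above every ACT + IL-2 tumor (exact two-sided permutation test of FPKM, p = 0.1, the smallest that 3 against 3 tumors allow). From the smallest numbers, the rate of *Il9r* reads was 6.51 times as high in ACT + NKTR-214, with an exact 95% interval of 2.28 to 25.5 that covers counting error only. In the fit without a minimum level its log2 fold change was 0.14 (adjusted p of 0.0101 by limma), a small value because the offset of 1 FPKM far exceeds these levels.

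Of the other cytokines, *Il7*, a survival factor of naive and memory T cells that stromal cells produce, measured 0.257, 0.256 and 0.307 FPKM in the ACT + IL-2 tumors, compared with 0.418, 0.343 and 0.493 FPKM in the ACT + NKTR-214 tumors, which takes at least 21 to 42 reads per tumor, or 33.1 to 66.2 by depth and exon length. All 3 ACT + NKTR-214 tumors were above the ACT + IL-2 tumors, as for 27.1% of all genes tested. Its log2 change of 0.15 ± 0.09 (SE) missed the threshold (adjusted p of 0.218 by limma), missed it in all 14 alternative fits that included the gene and was -0.02 with quantile normalization. *Il21*, a product of activated CD4 T cells, was seen only in replicate 2 of ACT + IL-2 and replicate 1 of ACT + NKTR-214 (0.0138 and 0.0128 FPKM, at least 1 read each and 1.66 by depth and exon length), and it was at 0 in the other 4 tumors. At this depth no difference in *Il21* was detectable.

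On the FPKM scale, the order of the mean levels was not the same in the 2 groups. In ACT + IL-2, mean FPKM fell from *Il2rg* through *Il4ra*, *Il2rb*, *Il21r*, *Il15ra*, *Il15*, *Il2ra* and *Il7* to *Il9r* and *Il21*. Each of the 4 neighboring pairs from *Il2rg* to *Il15ra* overlapped between tumors, and the pairs below did not. In ACT + NKTR-214, *Il2rb* (88.5 FPKM) was first and overlapped *Il2rg* (77.8 FPKM), followed by *Il4ra*, *Il2ra*, *Il21r*, *Il15ra*, *Il15*, *Il7*, *Il9r* and *Il21*. There, *Il2ra* and *Il21r* were the only other neighbors that overlapped. *Il2ra* thus stood at rank 7 of 10 in ACT + IL-2 and at rank 4 in ACT + NKTR-214.

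The receptor chain balance was then taken as the ratio of FPKM between 2 genes within a tumor. In ACT + IL-2 the beta chain was well below the gamma chain in every tumor, with *Il2rb* to *Il2rg* ratios of 0.334, 0.367 and 0.374 in replicates 1, 2 and 3. In ACT + NKTR-214 the ratios were 1.24, 1.09 and 1.08, so the beta chain was slightly above the gamma chain on the FPKM scale in all 3 tumors. Of the 50-base windows of *Il2rg* exons, 27.5% also occur in Gm20489, and the effect of this on the *Il2rg* level was not tested. Both genes varied about 2-fold between tumors of a group, whereas their ratio varied little, with means of 0.358 ± 0.0212 and 1.14 ± 0.0910 (SD, n = 3 each). On the log2 scale, with 0.1 FPKM added to each gene, the ratio was 1.64 higher in ACT + NKTR-214, and it stayed between 1.58 and 1.68 with each tumor left out in turn. An exact two-sided permutation test gave p = 0.1, the smallest that 3 against 3 tumors allow (0.127 adjusted over the 14 ratios computed), so no ratio could pass a threshold of 0.05.

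The alpha chain also shifted against the gamma chain. *Il2ra* to *Il2rg* ratios were 0.0353, 0.0420 and 0.0486 in ACT + IL-2 and 0.254, 0.239 and 0.380 in ACT + NKTR-214, a log2 difference of 2.58 (exact permutation p = 0.1). With 1 FPKM added in place of 0.1 it was 1.55, close to the 1.51 of *Il2rb* to *Il2rg* with that offset. Against the beta chain the shift of *Il2ra* was smaller. *Il2ra* to *Il2rb* ratios were 0.105, 0.114 and 0.130 in ACT + IL-2 and 0.205, 0.220 and 0.352 in ACT + NKTR-214, a log2 difference of 0.93 (exact permutation p = 0.1) that shrank to 0.69 without ACT + NKTR-214 replicate 3. In that tumor *Il2rb* and *Il2rg*, at 55.0 and 51.0 FPKM, were well below the others of the group, while *Il2ra*, at 19.4 FPKM, was close to them. With 1 FPKM added in place of 0.1, the log2 difference of *Il2ra* to *Il2rb* was 0.04, since the *Il2ra* values of ACT + IL-2 lie below 1 FPKM. *Il2rb* was above *Il2ra* in all 6 tumors.

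The alternative alpha chains exchanged places. *Il2ra* was below *Il15ra* in every ACT + IL-2 tumor, with ratios of 0.239, 0.244 and 0.229, and above it in every ACT + NKTR-214 tumor, with ratios of 3.39, 2.95 and 2.77. This log2 difference of 3.499 was, with this offset, the largest of the 14 computed and stayed between 3.42 and 3.56 with each tumor left out (exact permutation p = 0.1). *Il15ra* lost ground to the beta chain, with *Il15ra* to *Il2rb* ratios of 0.441, 0.469 and 0.568 in ACT + IL-2 and 0.0604, 0.0746 and 0.127 in ACT + NKTR-214. The difference of the *Il15ra* to *Il2rb* ratio was -2.57 on the log2 scale (exact permutation p = 0.1). *Il15* to *Il15ra* ratios were 0.616, 0.631 and 0.753 against 0.499, 0.383 and 0.382, without overlap, a log2 difference of -0.67 (exact permutation p = 0.1).

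The ratios of the IL-21, IL-4 and IL-7 receptor chains to the gamma chain overlapped between the groups with all 6 tumors. *Il21r* to *Il2rg* ratios were 0.224, 0.225 and 0.195 in ACT + IL-2 and 0.207, 0.199 and 0.192 in ACT + NKTR-214, a log2 difference of -0.13 (exact permutation p = 0.2) that ranged from -0.19 to -0.10 with each tumor left out and was -0.33 with 1 FPKM added in place of 0.1 (exact permutation p = 0.1). *Il4ra* to *Il2rg* ratios had means of 0.497 ± 0.0820 and 0.427 ± 0.108 (SD, n = 3 each) and a log2 difference of -0.24 (exact permutation p = 0.3). It was -0.12 without ACT + IL-2 replicate 1 and, of ACT + NKTR-214, -0.15 without replicate 1, -0.14 without replicate 2 and -0.44 without replicate 3. *Il7r* to *Il2rg* ratios had means of 0.164 ± 0.0475 and 0.250 ± 0.0745 (SD, n = 3 each), a log2 difference of 0.56 (exact permutation p = 0.3). It ranged from 0.33 (without ACT + NKTR-214 replicate 3) to 0.77 (without ACT + IL-2 replicate 3) with each tumor left out, was 0.35 without ACT + IL-2 replicate 2 and was 0.25 with 1 FPKM added in place of 0.1. *Il13ra1*, the partner of *Il4ra* outside the gamma chain, had *Il13ra1* to *Il4ra* ratios of 0.659, 1.18 and 1.58 in ACT + IL-2 and 0.423, 0.365 and 0.483 in ACT + NKTR-214, a log2 difference of -1.34 (exact permutation p = 0.1).

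**Figure D2:**
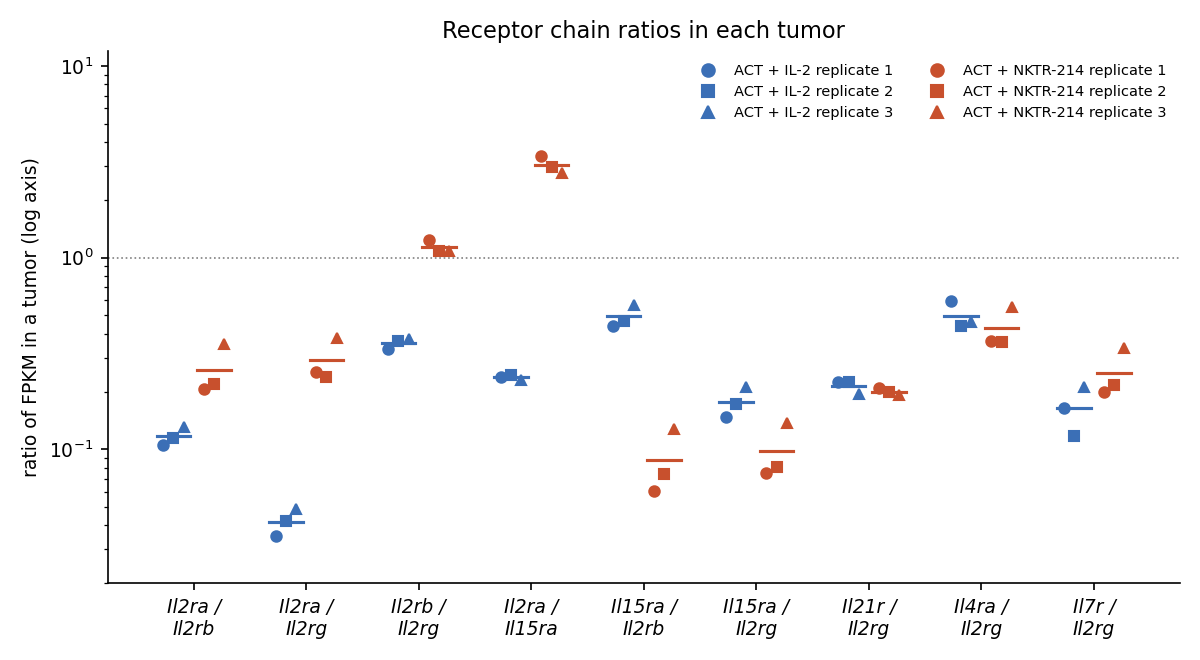
Ratio of the FPKM of 2 receptor chain genes within a tumor (log axis) for 9 pairs, with blue symbols for ACT + IL-2, red symbols for ACT + NKTR-214, symbol shape for the replicate and horizontal lines for group means of 3 tumors. *Il2rb* to *Il2rg* and *Il2ra* to *Il15ra* lie below the dotted line at 1 in all ACT + IL-2 tumors and above it in all ACT + NKTR-214 tumors, while *Il21r* to *Il2rg* overlaps between the groups.

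Markers of several cell types, though not of all those listed, moved with the treatment. All 6 pan T cell genes tested were higher in ACT + NKTR-214, and their summed level ranged from 9.33 to 20.9 FPKM in ACT + IL-2 and from 103 to 224 FPKM in ACT + NKTR-214. Both CD8 genes were higher (3.31 to 8.21 against 45.1 to 99.6 FPKM), as were 3 of 5 NK cell genes (0.936 to 3.06 against 8.63 to 19.3 FPKM), 6 of 6 macrophage and monocyte genes (75.3 to 192 against 319 to 473 FPKM) and 4 of 5 dendritic cell genes (3.62 to 6.49 against 6.60 to 16.2 FPKM). *Ncr1*, a defining NK cell gene, overlapped between the groups, with 0.915, 0.536 and 0.294 against 0.553, 1.15 and 0.316 FPKM. Fibroblast and stromal genes were higher for 5 of 5 (144 to 408 against 380 to 735 FPKM), and eosinophil genes for 2 of 3 (0.0951 to 0.222 against 1.85 to 3.63 FPKM). Mast cell and basophil genes were higher for 1 of 5, a share close to the 20.7% of all genes tested (0.747 to 5.13 against 1.64 to 10.3 FPKM). The eosinophil genes tested, the NK cell gene *Klri2* and *Mcpt8*, the mast cell and basophil gene called, averaged under 0.1 FPKM in ACT + IL-2. They reached the test only through ACT + NKTR-214, so these counts lean on the filter. Of the B cell genes, *Cd79a* and *Cd79b* could be tested and 0 of 2 were called by limma, also 0 at an unadjusted p under 0.05, with *Cd79a* at 0.158, 0.427 and 0.540 against 0.335, 0.154 and 0.571 FPKM and *Cd79b* at 1.67, 0.460 and 0.310 against 0.624, 1.36 and 0.444 FPKM. Of 6 housekeeping genes 0 were called in either direction by limma, also 0 at an unadjusted p under 0.05. The part of these cell types in the member results was not tested.

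Of the regulatory T cell genes, which matter for the alpha chain, 3 of 5 were higher, against 20.7% of all genes tested, with a summed level of 5.38 to 6.87 FPKM in ACT + IL-2 and 21.2 to 36.1 FPKM in ACT + NKTR-214. *Tnfrsf18* (GITR), which is also induced in activated effector T cells, made up most of the sum in ACT + NKTR-214 and had the largest log2 change of the list, 2.88 (adjusted p of 6.76e-08 by limma). *Ikzf4* (Eos), a transcription factor of regulatory T cells, rose from 0.182 ± 0.0308 to 1.05 ± 0.333 FPKM (SD, n = 3 each, adjusted p of 0.000103 by limma). *Ccr8*, a chemokine receptor of regulatory T cells in tumors, rose from 0.139 ± 0.0722 to 0.760 ± 0.512 FPKM (SD, n = 3 each, adjusted p of 0.00680 by limma). *Ikzf2* (Helios), at 1.22 ± 0.1795 and 1.51 ± 0.147 FPKM (SD, n = 3 each), did not pass (adjusted p of 0.307 by limma). *Foxp3*, the defining transcription factor of the lineage, measured 2.46, 2.12 and 2.06 FPKM in the ACT + IL-2 tumors, compared with 2.18, 2.44 and 2.00 FPKM in the ACT + NKTR-214 tumors. The tumors overlapped, and the log2 change of *Foxp3* was 0.00 ± 0.14 (SE, adjusted p of 0.996 by limma). *Foxp3* was above *Cd3e* in ACT + IL-2 replicates 2 and 3 (*Cd3e* at 1.97 and 1.99 FPKM) and below it in the other tumors. Which cells gave the *Foxp3* reads was not tested. With quantile normalization, under which the median log2 change of all genes was -0.10, *Foxp3* was lower in ACT + NKTR-214 (log2 fold change -0.29, adjusted p of 0.0303 by limma).

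To set the members beside T cell genes, the mean of log2(FPKM + 0.1) over the CD3 chain genes *Cd3d*, *Cd3e* and *Cd3g* was subtracted from that of each member within a tumor. *Cd3d*, *Cd3e* and *Cd3g* had log2 fold changes of 3.37, 3.53 and 3.62. Relative to them *Il2rb* overlapped between the groups, with 0.98, 1.503 and 1.14 in ACT + IL-2 and 1.14, 1.13 and 1.23 in ACT + NKTR-214, and its difference of -0.04 (exact permutation p = 0.8) changed sign with the reference gene. *Il2ra* was -2.13, -1.42 and -1.59 in ACT + IL-2 and -1.14, -1.05 and -0.27 in ACT + NKTR-214, without overlap, a log2 difference of 0.89 (exact permutation p = 0.1). Without ACT + NKTR-214 replicate 3 the difference of *Il2ra* was 0.62. With 1 FPKM added in place of 0.1 it was 0.25 and the groups overlapped (exact permutation p = 0.6), and that of *Il2rb* was 0.21 (exact permutation p = 0.3).

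*Il2rg*, *Il21r* and *Il4ra* were lower relative to the CD3 genes in every ACT + NKTR-214 tumor than in any ACT + IL-2 tumor. The log2 differences were -1.68 for *Il2rg*, -1.81 for *Il21r* and -1.93 for *Il4ra* (exact permutation p = 0.1 for each). For *Il15ra* and *Il15* they were -2.61 and -3.27 (exact permutation p = 0.1 for each). The leukocyte gene *Ptprc* (CD45), expressed by lymphoid and myeloid cells alike, gave a different reference. Relative to *Ptprc* the log2 differences were 2.39 for *Il2ra*, 1.46 for *Il2rb*, -0.18 for *Il2rg*, -0.31 for *Il21r*, -0.43 for *Il4ra*, -1.10 for *Il15ra* and -1.77 for *Il15*. A change of reference moves all members by the same amount, so the differences between members are those of the ratios above, and the sign for a member holds only for the reference named.

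**Figure D3:**
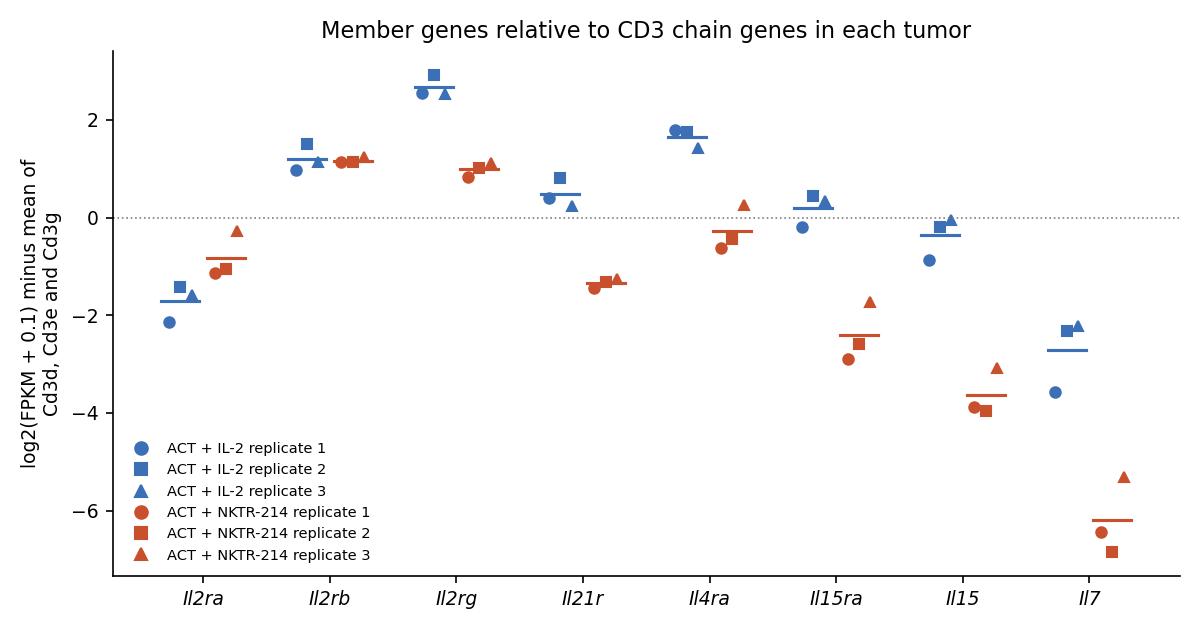
Level of 8 members, as log2(FPKM + 0.1) minus the mean over *Cd3d*, *Cd3e* and *Cd3g* in the same tumor, with blue symbols for ACT + IL-2, red symbols for ACT + NKTR-214, symbol shape for the replicate and horizontal lines for group means of 3 tumors. *Il2rb* overlaps between the groups, *Il2ra* is higher in ACT + NKTR-214 with this offset of 0.1, and the other 6 genes are lower there.

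The rest of the family was followed through 8 further genes, of which 5 could be tested and 4 were higher in ACT + NKTR-214, against 20.7% of all genes tested. Their median log2 fold change was 0.90, which is the value of *Il13* and was measured with 1 FPKM added. *Il13* reached the level needed for the test only through ACT + NKTR-214 (mean of 0.912 FPKM, against 0.0232 FPKM in ACT + IL-2). The count of 4 and the median therefore lean on that filter. *Crlf2*, a receptor chain for TSLP that is related to the gamma chain, rose by 1.80 on the log2 scale (adjusted p of 4.41e-06 by limma), its means being 7.89 ± 2.00 and 30.1 ± 7.51 FPKM (SD, n = 3 each). *Il7r*, which pairs with the gamma chain for IL-7 and with *Crlf2* for TSLP, rose by 2.46 on the log2 scale (adjusted p of 6.2e-07 by limma), whereas its ligand gene *Il7* did not pass. *Il7* to *Il7r* ratios were 0.0637, 0.163 and 0.133 in ACT + IL-2 and 0.0263, 0.0155 and 0.0288 in ACT + NKTR-214, without overlap (exact permutation p = 0.1).

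*Tslp* itself, an epithelial and stromal cytokine, had 0.143 ± 0.0581 and 0.134 ± 0.0449 FPKM (SD, n = 3 each) and overlapped between the groups (adjusted p of 0.935 by limma). It rested on at least 5, 2 and 4 reads in ACT + IL-2 and 3, 3 and 5 reads in ACT + NKTR-214, too few to show a small difference. *Il13ra1* rose by 0.64 on the log2 scale (adjusted p of 0.00469 by limma). *Il13*, a type 2 cytokine, went from 2, 0 and 0 reads in ACT + IL-2 to 24, 27 and 29 reads in ACT + NKTR-214 (log2 fold change 0.90, adjusted p of 3e-06 by limma). With 0.1 FPKM added in place of 1 the log2 fold change of *Il13* was 3.08. The T cell growth factor gene *Il2* was seen as 2, 3 and 0 reads in ACT + IL-2 and 1, 1 and 0 reads in ACT + NKTR-214, *Il4* as 0, 0 and 1 against 0, 3 and 2 reads, and *Il9* was listed at 0 in all 6 tumors.

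Downstream of the receptors, 5 of 10 signaling genes were higher and 0 were lower (limma, also 0 at an unadjusted p under 0.05), against 20.7% and 8.28% of all genes tested, with a median log2 fold change of 0.37. *Jak3*, the kinase bound to the gamma chain, rose most (log2 fold change 1.48, adjusted p of 2.38e-05 by limma), followed by *Jak1*, the kinase of the partner chains (0.87, adjusted p of 0.000770 by limma). *Stat5b* and *Stat3*, transcription factors that the kinases activate, were at the low end, at 0.06 and 0.03 on the log2 scale (adjusted p of 0.821 and 0.895 by limma), and both were negative under each of the 3 other scalings.

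Of 12 genes that cytokines of this family induce or that curb their signal, 8 were higher and 0 were lower (limma, also 0 at an unadjusted p under 0.05), against the same 20.7% and 8.28%, with a median log2 fold change of 0.94. *Cish*, an inhibitor induced through STAT5, had a log2 change of 2.99 (adjusted p of 4.51e-08 by limma), with means of 1.41 ± 0.316 and 18.4 ± 4.78 FPKM (SD, n = 3 each). *Lta*, the lymphotoxin alpha gene, had 2.20 (adjusted p of 1.03e-07 by limma). With 0.1 FPKM added in place of 1, the log2 changes were 3.61 for *Cish* and 3.73 for *Lta*, so their order depends on the offset. The growth regulators *Myc* and *Ccnd2* stood at 0.29 and 0.12 on the log2 scale and did not pass (adjusted p of 0.198 and 0.645 by limma). These lists were counted over the whole tumor, in which the T cell genes above moved at the same time, and the part of T cell number in them was not tested.

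**Figure D4:**
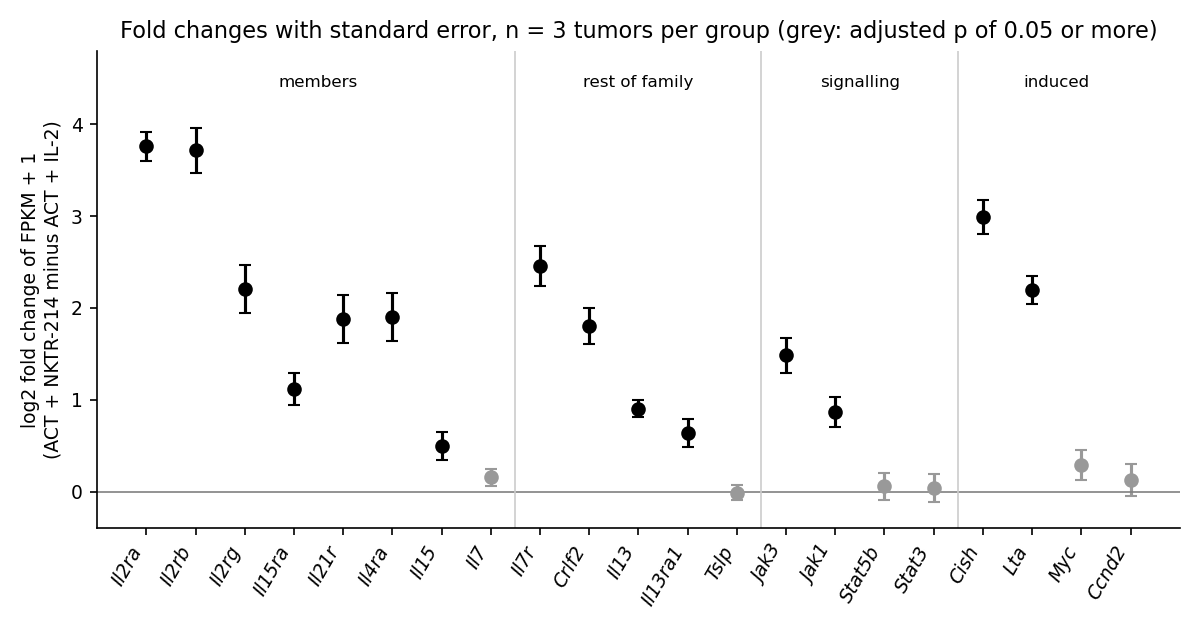
Log2 fold changes of FPKM + 1 (ACT + NKTR-214 minus ACT + IL-2, n = 3 tumors each) with standard errors from limma for the 8 tested members, the rest of the family and the 2 highest and 2 lowest genes of the signaling and induced lists. Black points have an adjusted p under 0.05 and grey points do not. *Il2ra* and *Il2rb* are the highest, while *Il7*, *Tslp*, *Stat5b*, *Stat3*, *Myc* and *Ccnd2* did not pass.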

How the data were processed

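Total RNA of whole tumors was sequenced by the authors as 50-base single-end reads, mapped to GRCm38 with HISAT2 2.0.4 and counted per gene with HTSeq. The deposited values are FPKM on the linear scale, 1 column per tumor for 6 tumors, and replicates were not pooled. No further scaling between libraries is stated. FPKM holds no counts, so no count test was run over the genes. Only the interval of the *Il9r* rate used read numbers recovered from FPKM.

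Genes averaging 0.1 FPKM or more over the 6 tumors were tested on log2(FPKM + 1) with limma 3.58.1 (R 4.3.3, lmFit, then eBayes with an intensity trend). P-values were adjusted by Benjamini-Hochberg over every gene tested, and 0.05 was the threshold. The offset of 1 makes changes of low genes look smaller than they are. No block was used. Ratios and levels relative to CD3 genes used log2(FPKM + 0.1) and exact two-sided permutation tests over tumors. The smallest p of 3 against 3 tumors is 0.1. The study calls the tumors of a group biological replicates. Limma p-values rest on a variance that blends the spread between tumors for a gene with a trend over all genes tested. For *Il2rb* the SE was 0.25 with this moderation and 0.41 without it. Permutation p-values rest on the tumors alone.

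Depth was estimated from low FPKM values, which fall on steps of 1 read once multiplied by the exon length of GENCODE vM21. Read numbers are the smallest whole numbers that fit all 6 tumors of a gene within 0.1 read, and are lower limits. Sums of FPKM ranged from 176420 to 246514 per library, lowest in ACT + IL-2 replicate 2.

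The fit was tested on simulated data. The summed level of the B cell list is not reported here. The members and gene lists were chosen with earlier results of these data known. Named genes are the 10 members, the further family genes, genes that enter a ratio and reference genes. Of the signaling and induced lists the 2 highest and 2 lowest are named, and of the regulatory T cell and melanocyte lists every gene. Some genes of the other cell type and housekeeping lists are named outside this rule. Alternatives were another pseudocount, other minimum levels, 3 scalings, 2 variance models, the replicate block and each tumor left out. Other steps used pandas 2.3.3 and numpy 2.4.6 under Python 3.11.15, with figures by matplotlib 3.10.9.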

Additional observations from a re-analysis of the deposited data

How the results depend on the processing

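Members called higher numbered 7, and 6 to 7 under every alternative except limma without moderation of the variance, which called 1 member and, over the whole table, 101 higher and 27 lower genes. Without a minimum level the 7 were not the same, as *Il9r* was called (adjusted p of 0.0101 by limma) and *Il15* was not (0.0531). Members called lower numbered 0 throughout. Higher and lower genes over the whole table numbered 2940 and 1173, against 3259 and 3709 with 75th percentile scaling, 2926 and 4426 with FPKM set to a common sum, and 2669 and 4549 with quantile normalization, so the split depends on the scaling. Over all genes tested the median log2 change was 0.05, and it was -0.10 with a common sum and with quantile normalization. With 1 tumor left out, higher genes numbered 2005 to 3476 and lower genes 636 (without ACT + IL-2 replicate 3) to 1996 (without ACT + IL-2 replicate 2), with 680 without ACT + NKTR-214 replicate 2. With the replicate number as a block, 3090 genes were higher, 1227 were lower and 7 members were higher. Same-numbered tumors correlated at -0.21, -0.07 and 0.40 in their deviations from group means. Deviations within a group of 3 tumors sum to 0, so these values cannot show whether same-numbered tumors share more than a number. The sign changed for the *Il9r* to *Il2rg* ratio, -1.36 and 0.47 without an offset, which rests on few reads. Relative to CD3 genes, *Il2rb* was 0.21 with an offset of 1, 0.0084 against *Cd3e* alone, 0.13 against *Cd8a*, 1.46 against *Ptprc* and -0.15 to 0.11 with 1 tumor left out, and *Il7r* was 0.38 against *Ptprc*. Log2 fold changes that changed sign belonged to genes not called. With quantile normalization *Il7* was -0.0179 and *Ikzf2* -0.11. With 75th percentile scaling, a common sum and quantile normalization, *Stat3* was -0.0732, -0.147 and -0.0852, and *Stat5b* -0.0431, -0.118 and -0.0502. *Ccnd2* was -0.0590 with a common sum and -0.0163 with quantile normalization. With 1 tumor left out, *Stat3* ranged from -0.0389 to 0.11, *Stat5b* from -0.0395 to 0.13, *Tslp* from -0.0543 to 0.0144 and *Foxp3* from -0.0532 to 0.0533. The cause of these shifts was not tested. Depth limits *Il9r*, *Il21*, *Il2*, *Il4* and *Tslp*, whose values rest on few reads per tumor.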
